A study of Mus musculus with 14 samples.

Results

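The RNA-seq tables of the study list 1573 genes in at least 1 of 2 experiments on transplanted mouse haematopoietic stem cells (HSCs), and 53 symbols occur in both. Described here are 42 of these 53 genes, all those shared by both tables except Cebpb, Cd14, Cdkn1a, Ddit3, Ppp1r15a, Hspa1b, Ccn1, Mapk12, Gpr183, Tpsb2 and Mcpt4. They are a set defined by 2 lists and not by a pathway. The age table holds 1043 genes and the Clu KO table holds 583 genes, and neither is a table of all genes. The age table is the authors' list of genes called higher in transplanted oHSCs, judging by its size, and 1006 of its genes had a positive fold change here and 37 a negative one. A positive age sign of the 42 genes was therefore largely set by how the table was chosen, and only Rps15a-ps4 among them was negative. The Clu KO table holds only a part of the genes that the authors called in that experiment, in both directions, and 2 of its rows are at 0 in all 7 libraries.

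In the age experiment, transplanted HSCs of young donors (y_Tx, yHSCs, 3 libraries) and of old donors (o_Tx, oHSCs, 4 libraries) were compared 4 months after transplantation. The strain and exact age of these donors are not given in the sources used here. C57BL/6J mice of 2 months and of more than 18 months, and Rosa26-Cas9 knock-in mice, are among the animals of the study. In the Clu KO experiment, HSCs of Rosa26-Cas9 knock-in donors of 24 months were infected with an mCherry lentivirus carrying a control guide (o_sgCtrl, 3 libraries) or 3 guides against Clu, the gene of the secreted chaperone clusterin (o_sgClu, 4 libraries), and HSCs were isolated from the bone marrow of recipients 4 months after transplantation. The study used lethally irradiated CD45.1 mice as recipients. All 14 libraries therefore come from cells that had been transplanted, every library of the Clu KO experiment carries Cas9 and a virus, and guides can leave a mixture of edited and unedited alleles. Values are FPKM, a measure of abundance that corrects fragment counts for transcript length and library size. Fold changes are differences of mean log2(FPKM + 1), which understate changes of low genes, and were taken only within an experiment because the tables were made separately.

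Several of these genes are read as endpoints of signalling. BMP ligands act through SMAD proteins on the Id genes, whose products hold back differentiation factors, and on Bambi, a decoy receptor that dampens the pathway. Notch receptors act through RBPJ on the repressors Hes1 and Hey1. Plaur encodes the receptor of urokinase, which focuses plasmin formation at the cell surface, and Procr encodes the endothelial protein C receptor, a marker of quiescent HSCs. Plk2, Plk3, Rrad, Nupr1 and Sgk1 are induced by stress in many cell types, and Cish is a feedback inhibitor of STAT5 signalling.

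Of the 42 genes, 32 (76.2%) were higher in oHSCs than in yHSCs past both limits, an unadjusted limma p under 0.05 and an absolute log2 fold change above 0.5. Among all 1043 genes of that experiment, 652 were (62.5%). In the Clu KO experiment 21 were lower in sgClu, beside 292 of 583 (50.1%), and 10 (23.8%) were higher, beside 90 of 583 (15.4%). Of the 42 genes, 20 passed with the adjusted p in age, 19 in the lower and 8 in the higher direction in Clu KO. The median log2 fold change over the 42 genes was 0.77 in age, against 0.70 over the whole table, and -0.60 in Clu KO, against -0.52. The age medians and the Clu KO medians move with the scale of each table. Rescaling each library by the median of ratios within its table took the median of all genes to 0.07 in age and to -0.09 in Clu KO. As each table holds genes chosen for going mostly 1 way, this rescaling removes much of the selected difference by construction. The same holds for the scaling by column totals used below. A call lost or a sign turned under either scaling therefore does not show that a change is absent. Under that scaling the calls over all genes went from 652 higher and 10 lower to 125 and 54 in age, and from 90 higher and 292 lower to 130 and 59 in Clu KO. Of the 42 genes 8 then stayed past the limits as higher in oHSCs, 7 as lower in sgClu, and 12 were past them as higher in sgClu. The changes given below are those of the deposited scale, and each can be read against the table medians of 0.70 and -0.52.

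The age sign being set by the list, the split below rests on the Clu KO sign. By the sign of the fold change, 29 genes were positive in age and negative in Clu KO, 12 were positive in both, 1 was negative in both (Rps15a-ps4) and 0 were negative in age and positive in Clu KO. Past both limits in both experiments, 18 genes were higher in oHSCs and lower in sgClu, and 6 were higher in both comparisons (Glt8d2, Gm5843, Gstt1, Pars2, Sf3b4 and Tfg). These counts stand beside 62.5% of all listed genes higher in age, and 50.1% lower and 15.4% higher in Clu KO. Only genes listed in both experiments can pass in both, and no share over the 53 such genes was computed. Whether 18 or 6 is more than the lists alone would give was not tested. A further 8 genes passed in age only, 7 in Clu KO only, and 3 in neither (Insrr, Rps15a-ps4 and Ttn). The groups had no overlap, every oHSC library above every yHSC library, for 25 genes (59.5%), beside 49.7% of the age table. Every sgClu library lay below every sgCtrl library for 19 genes (45.2%), beside 52.5% of its table, and above for 10 genes (23.8%), beside 14.2%. No overlap in either experiment held for 18 genes, 11 of them high in oHSCs and low in sgClu, 6 high in both and 1 low in both. For this count too, no share over all genes listed in both experiments was computed.

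**Figure D1:**
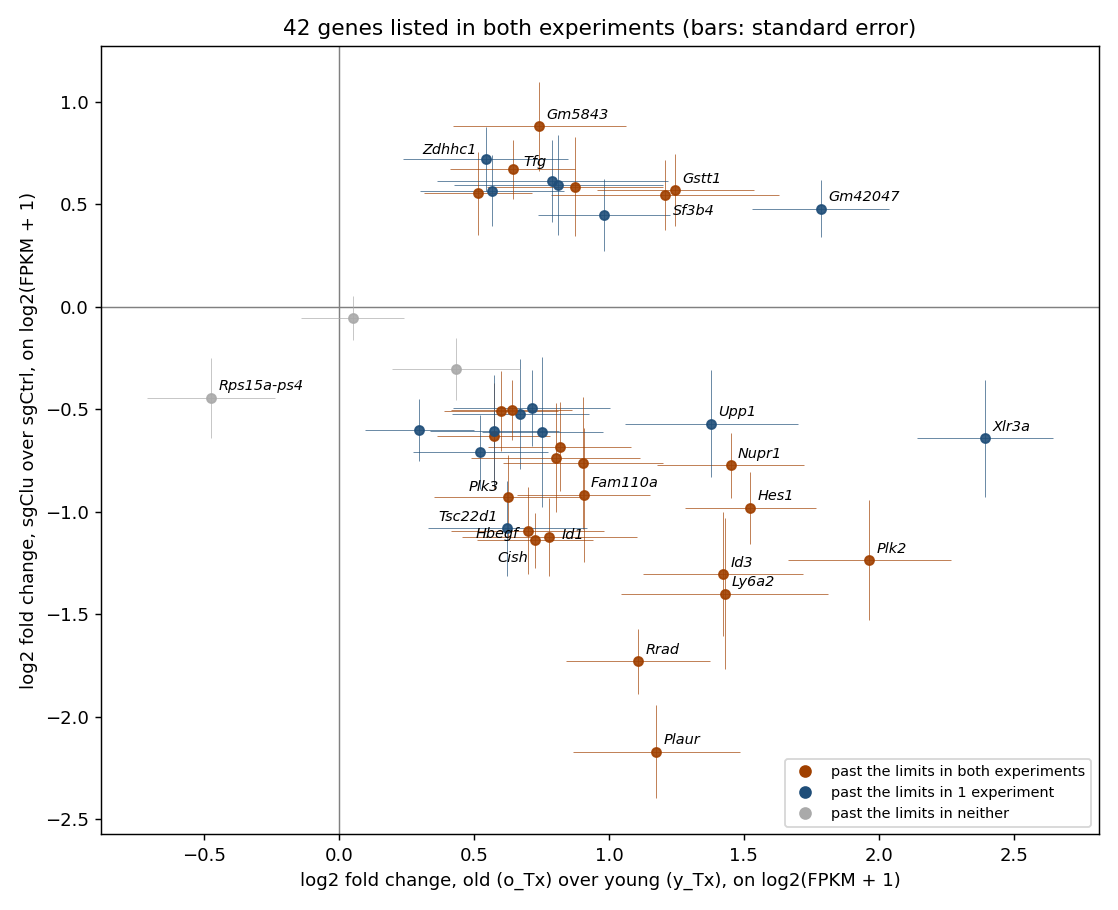
Each of the 42 genes by its log2 fold change between old and young (x axis) and between sgClu and sgCtrl (y axis), both on log2(FPKM + 1) with standard errors, coloured by whether it passed the limits in both, 1 or neither experiment. Plaur lies lowest at 1.18 and -2.17, Xlr3a farthest right at 2.39, and 12 genes lie above 0 on both axes.

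Plaur had the largest fall in sgClu among the 42 genes. In the oHSC libraries, replicates 1 to 4, it stood at 176, 182, 131 and 107 FPKM, and in the yHSC libraries, replicates 1 to 3, at 91.7, 69.1 and 41.1. In the sgCtrl libraries it stood at 153, 112 and 110 FPKM, and in the sgClu libraries at 25.7, 21.3, 39.2 and 23.7. Neither pair of groups overlapped, although the lowest oHSC and highest yHSC libraries were close. The log2 fold change was 1.18 (SE 0.31, adjusted p = 0.0207) in age and -2.17 (SE 0.23, adjusted p = 0.0013) in Clu KO, where the sgCtrl mean was 4.56 times the sgClu mean. Under the rescaling by median of ratios the age change of Plaur was 0.36 and did not pass, and the Clu KO change was -1.55 and did.

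Plk2, a polo-like kinase that responds to stress and p53, had the second largest rise in oHSCs. It stood at 11, 27.6, 16.9 and 18.3 FPKM in the oHSC libraries and at 4.05, 4.67 and 2.76 in the yHSC libraries. In sgCtrl it stood at 17.6, 12.4 and 13.1 FPKM and in sgClu at 4.61, 3.8, 10.3 and 4.74. The groups did not overlap in either experiment, though sgClu replicate 3 was well above the other sgClu libraries. The log2 fold change of Plk2 was 1.96 (SE 0.30, adjusted p = 0.00223) in age and -1.24 (SE 0.29, adjusted p = 0.0109) in Clu KO. It was 1.26 and -0.67 after the rescaling by median of ratios, past the limits in both. Plk3, a related kinase, rose by 0.62 (SE 0.28, adjusted p = 0.0753) on overlapping values, which was 0.49 and short of the limits with replicate numbers as a block. The block leaves oHSC replicate 4, which has no yHSC library of its number, out of the fold change. In Clu KO Plk3 fell by 0.93 (log2 -0.93, SE 0.20, adjusted p = 0.00886), from 6.25, 5.22 and 8.03 FPKM in sgCtrl to 2.76, 3.77, 3.35 and 1.97 in sgClu. The rescaling by median of ratios turned the age change of Plk3 to -0.090.

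The promoters of Plaur and Plk2 are shown because these genes lead the fall in sgClu and the rise in oHSCs among the 18 genes that passed in opposite directions. Each is the 250 bases before a RefSeq transcript start, read 5′ to 3′ on the plus strand of GRCm38.p6, for Plaur chr7:24462233-24462482 and for Plk2 chr13:110394794-110395043. Capitals mark matches, on either strand, to 4 motifs of stress-responsive factors chosen after the values were seen, AP-1 (TGANTCA), the cAMP response element bound by CREB (TGACGTCA), Egr (GCGGGGGCG) and C/EBP (TTGCNNAA).
Plaur: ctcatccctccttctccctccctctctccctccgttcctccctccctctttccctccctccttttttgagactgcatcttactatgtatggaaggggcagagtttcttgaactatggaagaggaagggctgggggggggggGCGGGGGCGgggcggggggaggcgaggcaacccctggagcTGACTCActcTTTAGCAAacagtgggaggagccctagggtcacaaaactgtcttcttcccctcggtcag
Plk2: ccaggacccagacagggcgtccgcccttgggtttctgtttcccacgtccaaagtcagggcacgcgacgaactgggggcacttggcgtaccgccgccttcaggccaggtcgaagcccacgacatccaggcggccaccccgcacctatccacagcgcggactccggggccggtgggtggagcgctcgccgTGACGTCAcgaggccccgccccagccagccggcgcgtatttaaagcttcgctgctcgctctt
The Plaur window holds an Egr match starting 109 bases before the start site, an AP-1 match 69 bases before it and a C/EBP match 59 bases before it, with no overlap among them. The Plk2 window holds a single match, the cAMP response element, 62 bases before its start site. Of 32851 RefSeq windows of this length, 6.75% held an AP-1 match, 1.55% the cAMP response element, 2.57% an Egr match and 9.56% a C/EBP match. Windows were at hand for 23 of the 42 genes (38 windows), and AP-1 matches lay at 4 distinct sites, in Fam110c, Plaur, Procr and Upp1, where 2 overlapping windows hold the same site. C/EBP matches lay at 5 sites, in AW209491, Gstt1, Plaur, Procr and Sgk1, and the cAMP response element and Egr matches at 1 site each, in Plk2 and Plaur. These are letters in a window, and no binding was measured.

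Among the receptors and ligands, Procr rose by 0.90 in oHSCs (SE 0.30, adjusted p = 0.0404), from 7.07, 8.25 and 3.65 FPKM in yHSCs to 11.3, 13.2, 8.74 and 16.5 in oHSCs. It fell in sgClu (log2 -0.76, SE 0.32, adjusted p = 0.0585) with overlapping groups, 22.5, 14.5 and 10.8 FPKM in sgCtrl and 4.95, 8, 11.4 and 11.7 in sgClu. The Clu KO call on Procr was lost when any of 4 libraries was left out (sgClu replicates 1 and 2, sgCtrl replicates 1 and 2). Hbegf, a ligand of the EGF receptor shed from the cell surface, fell from 7.89, 6.12 and 5.2 FPKM in sgCtrl to 2.31, 2, 3.79 and 1.92 in sgClu (log2 -1.09, SE 0.21, adjusted p = 0.00621). Its rise in oHSCs was 0.70 (SE 0.28, adjusted p = 0.0634), with overlapping groups. S1pr1, the sphingosine 1-phosphate receptor that guides the egress of blood cells, fell in sgClu (log2 -0.71, SE 0.18, adjusted p = 0.0135) without overlap. In age S1pr1 had a log2 fold change of 0.52 (adjusted p = 0.0893) and did not pass. With replicate numbers as a block, which leaves out oHSC replicate 4, it was 0.64 (adjusted p = 0.0358) and passed. Both scalings turned the age change of S1pr1 below 0. Insrr, a receptor related to the insulin receptor, was under 1 FPKM in all 14 libraries and passed in neither comparison. The remaining surface protein, Cmtm3, behaved differently and is given with the genes higher in both comparisons.

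Of the 6 transcriptional regulators and modulators linked to BMP and Notch signalling, all 6 were positive in age and negative in Clu KO, 5 rose past the limits in oHSCs and 4 fell in sgClu, beside 62.5% and 50.1% of all genes of the 2 tables. Hes1, a repressor and the best known Notch target, stood at 55.3, 90.9, 57.1 and 67.4 FPKM in oHSCs and at 19.7, 21.4 and 26.7 in yHSCs. It stood at 50.2, 40.2 and 47.9 FPKM in sgCtrl and at 18.4, 20.3, 26.6 and 27 in sgClu. The groups were far apart in both experiments, with log2 fold changes of 1.52 (SE 0.24, adjusted p = 0.00274) and -0.98 (SE 0.18, adjusted p = 0.0048). Hey1, a second Notch target, rose in oHSCs (0.75, SE 0.23, adjusted p = 0.0309). In Clu KO Hey1 was 2.92, 1.16 and 0.412 FPKM in sgCtrl and 0.172, 1.32, 0.498 and 0.231 in sgClu. These ranges overlapped and the difference of -0.61 (SE 0.37, adjusted p = 0.14) did not pass.

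Id3, an inhibitor of basic helix-loop-helix factors, stood at 28.8, 54, 29.9 and 22.7 FPKM in oHSCs and at 9.42, 13.6 and 11.3 in yHSCs. It stood at 20.7, 13.3 and 13.7 FPKM in sgCtrl and at 2.91, 6.84, 6.1 and 8.32 in sgClu. Groups did not overlap, and the log2 fold changes of Id3 were 1.42 (SE 0.30, adjusted p = 0.0106) and -1.30 (SE 0.30, adjusted p = 0.0105). Id3 and Plk2 were the only genes among the 18 that passed as higher in oHSCs and lower in sgClu under both scalings as well. Id1 fell in sgClu with no overlap, from 14.8, 17.3 and 10.3 FPKM to 4.81, 5.77, 6.86 and 5.92 (log2 -1.12, SE 0.19, adjusted p = 0.0042). In age the Id1 groups overlapped, at 15.4, 26.2, 17.5 and 13.2 FPKM in oHSCs and 14.7, 10.7 and 5.81 in yHSCs, and the rise of 0.78 (SE 0.32, adjusted p = 0.066) was lost without any of 4 libraries (oHSC replicates 2 and 3, yHSC replicates 2 and 3). Bambi rose by 0.71 in oHSCs (SE 0.29, adjusted p = 0.0635), a change that was -0.021 after median-of-ratios scaling, and its Clu KO difference of -0.49 (SE 0.18, adjusted p = 0.0405) was just short of the fold limit and turned above 0 under both scalings. Tsc22d1, a leucine zipper protein induced by TGF-β and the highest of the 42 genes by mean FPKM in all 4 groups, fell from 480, 328 and 302 FPKM in sgCtrl to 130, 187, 224 and 156 in sgClu (log2 -1.08, SE 0.23, adjusted p = 0.00837). In age its 0.62 (adjusted p = 0.0859) did not pass, and with replicate numbers as a block 0.77 (adjusted p = 0.03) did. Both scalings turned the age change of Tsc22d1 below 0.

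**Figure D2:**
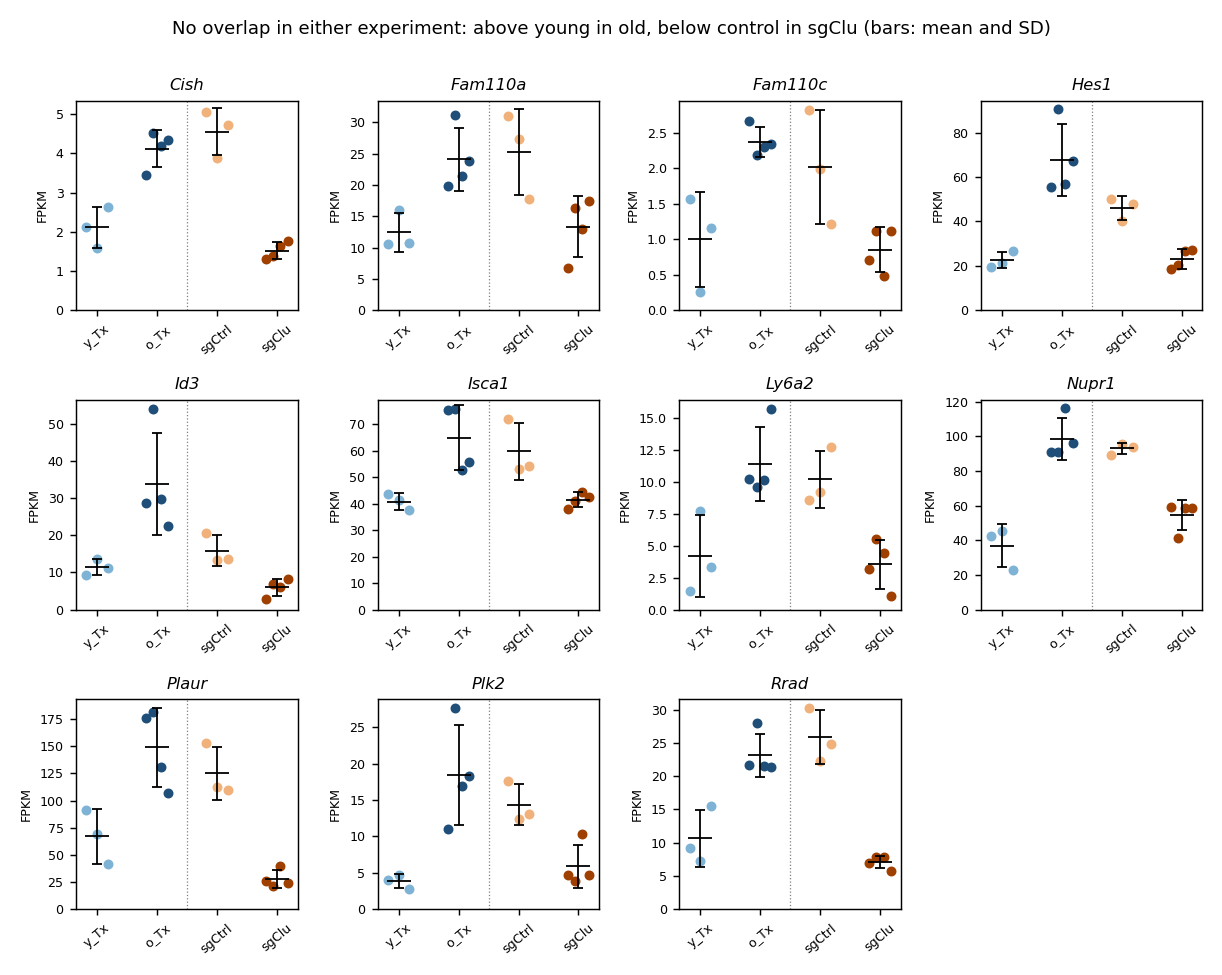
FPKM (y axis, from 0) of the 11 genes whose groups did not overlap in either experiment and that were higher in oHSCs and lower in sgClu, with 1 point a library and bars for the mean and SD of each group (x axis). The dotted line parts the experiments, whose levels are not on a common scale, and on each side the dark group lies wholly on 1 side of the light group.

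The 6 growth arrest, stress and feedback genes (Cish, Nupr1, Plk2, Plk3, Rrad and Sgk1) all rose past the limits in oHSCs and all fell past them in sgClu, beside 62.5% and 50.1% of all genes. By the adjusted p, Plk3 and Sgk1 did not pass in age. Of the 6, Nupr1 and Plk2 alone kept the age call under both scalings, and Cish, Plk2 and Rrad alone kept the Clu KO call. Rrad, a GTPase of the RGK family and a p53 target, stood at 21.7, 28, 21.5 and 21.5 FPKM in oHSCs and at 9.16, 7.27 and 15.5 in yHSCs. It stood at 30.4, 22.4 and 24.9 FPKM in sgCtrl and at 6.96, 7.77, 7.82 and 5.78 in sgClu. Its fall (log2 -1.73, SE 0.16, adjusted p = 0.0013) was the second largest in sgClu among the 42 genes, and its rise was 1.11 (SE 0.27, adjusted p = 0.0157). Nupr1, a small chromatin protein induced by stress, stood at 90.9, 90.8, 116 and 96.3 FPKM in oHSCs and at 42.7, 45.2 and 22.6 in yHSCs. It stood at 89.1, 95.7 and 94 FPKM in sgCtrl and at 59.1, 41.5, 58.6 and 58.7 in sgClu. Nupr1 was separated in both experiments, with log2 fold changes of 1.45 (SE 0.27, adjusted p = 0.00682) and -0.77 (SE 0.16, adjusted p = 0.00714).

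Cish stood at 3.45, 4.52, 4.19 and 4.34 FPKM in oHSCs and at 2.11, 1.6 and 2.64 in yHSCs. It stood at 5.05, 3.89 and 4.74 FPKM in sgCtrl and at 1.31, 1.37, 1.64 and 1.76 in sgClu. Its libraries were tight within groups, and the log2 fold changes were 0.73 (SE 0.21, adjusted p = 0.0294) and -1.14 (SE 0.13, adjusted p = 0.00219). Sgk1, a kinase induced by glucocorticoids and serum, rose by 0.80 (SE 0.31, adjusted p = 0.0591) and fell by 0.74 (log2 -0.74, SE 0.27, adjusted p = 0.0368), with overlap in both experiments. In sgCtrl its replicate 3, at 7.4 FPKM, lay within the sgClu range of 6.15 to 7.93, while replicates 1 and 2 stood at 17.9 and 14.9.

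Other genes high in oHSCs and low in sgClu with no overlap were Ly6a2, Fam110a, Fam110c and Isca1. Ly6a2, a relative of the Ly6 surface antigens that GENCODE annotates as a pseudogene, stood at 10.2, 9.59, 10.1 and 15.7 FPKM in oHSCs and at 1.46, 7.74 and 3.33 in yHSCs. It stood at 8.61, 9.25 and 12.8 FPKM in sgCtrl and at 3.19, 5.55, 4.46 and 1.07 in sgClu. The changes of Ly6a2 were 1.43 (SE 0.38, adjusted p = 0.0215) and -1.40 (SE 0.37, adjusted p = 0.0158) on the log2 scale. Fam110a and Fam110c are paralogues that encode centrosome and microtubule associated proteins. Fam110a stood at 19.8, 31.2, 21.5 and 23.9 FPKM in oHSCs against 10.5, 16.1 and 10.7 in yHSCs, and at 31, 27.3 and 17.7 in sgCtrl against 6.67, 16.3, 13 and 17.4 in sgClu. Its sgClu and sgCtrl groups were parted by little (17.4 and 17.7 FPKM), and the changes were 0.91 (SE 0.25, adjusted p = 0.0225) and -0.92 (SE 0.33, adjusted p = 0.0363). Fam110c was lower, at 2.68, 2.19, 2.3 and 2.34 FPKM in oHSCs against 1.57, 0.259 and 1.16 in yHSCs, and at 2.83, 1.99 and 1.22 in sgCtrl against 0.711, 1.11, 0.477 and 1.12 in sgClu. Fam110c changed by 0.82 (SE 0.26, adjusted p = 0.0387) and -0.68 (SE 0.22, adjusted p = 0.0266). Without yHSC replicate 2 its age change was 0.52 and the call was lost, and without sgCtrl replicate 1 its Clu KO change was -0.49 and the call was lost.

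Isca1, which assembles mitochondrial iron-sulfur clusters, stood at 75.4, 75.7, 52.7 and 55.9 FPKM in oHSCs and at 43.6, 41.4 and 37.5 in yHSCs. It stood at 72.1, 53 and 54.3 FPKM in sgCtrl and at 37.9, 41.1, 44.5 and 42.6 in sgClu. The groups were separate, and its changes of 0.64 (SE 0.22, adjusted p = 0.0468) and -0.50 (SE 0.15, adjusted p = 0.0205) were close to the table medians, so that both scalings turned the sign in both experiments. Upp1, a uridine phosphorylase of pyrimidine salvage, rose in oHSCs without overlap (1.38, SE 0.32, adjusted p = 0.0142), while its Clu KO difference of -0.57 (SE 0.26, adjusted p = 0.0712) did not pass. Of the interferon-inducible GTPases, Gbp6 rose by 0.67 (SE 0.25, adjusted p = 0.0562) at low levels, from a mean of 0.170 FPKM in yHSCs to 0.916 in oHSCs. Its call was lost at 0.50 with replicate numbers as a block and under both scalings. Gm4951 rose by 0.57 (SE 0.24, adjusted p = 0.066), a change of -0.0055 after median-of-ratios scaling. Neither Gbp6 nor Gm4951 passed in Clu KO, with -0.52 (SE 0.27) and -0.60 (SE 0.27).

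The 12 genes with positive fold changes in both comparisons had a median log2 fold change of 0.80 in age and 0.58 in Clu KO, and all lay at 0.88 or below in Clu KO. Gstt1, a glutathione transferase of detoxification, stood at 13.3, 13.8, 9.13 and 9.52 FPKM in oHSCs and at 6.6, 4.11 and 2.56 in yHSCs. It stood at 9.75, 9.98 and 10 FPKM in sgCtrl and at 11.3, 14.4, 17.9 and 18.3 in sgClu. No library of the higher group overlapped the lower group, and the changes of Gstt1 were 1.25 (SE 0.29, adjusted p = 0.0142) and 0.57 (SE 0.18, adjusted p = 0.0241). Both of its calls held under both scalings, but the Clu KO call was lost without sgClu replicate 3 or 4. Tfg, a protein of the exit sites of the endoplasmic reticulum, stood at 59.7, 55.2, 53.4 and 44.3 FPKM in oHSCs and at 40.6, 36 and 25.7 in yHSCs. It stood at 32.9, 44.9 and 37.7 FPKM in sgCtrl and at 57.4, 57.4, 67.7 and 63.9 in sgClu. The rise of Tfg in sgClu (0.67, SE 0.15, adjusted p = 0.00866) held without any single library, whereas its age change (0.64, SE 0.23, adjusted p = 0.0503) was lost without yHSC replicate 3 and turned below 0 under both scalings.

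Zdhhc1, a palmitoyltransferase that takes part in antiviral signalling, stood at 2.67, 2.08 and 1.99 FPKM in sgCtrl and at 4.57, 5.26, 4.19 and 3.46 in sgClu. It rose there by 0.72 (SE 0.15, adjusted p = 0.00837). In oHSCs it stood at 2.61, 6.8, 3.04 and 2.46 FPKM and in yHSCs at 2.37, 2.38 and 1.51. These groups did not overlap, but the age change of 0.54 (SE 0.31, adjusted p = 0.129) did not pass, was 0.66 and past the limits with replicate numbers as a block, and was -0.050 after median-of-ratios scaling. Cmtm3, a chemokine-like membrane protein, stood at 28.7, 22.4, 19 and 22.2 FPKM in oHSCs against 15, 9.24 and 9.7 in yHSCs, and at 19.3, 21.8 and 15.9 in sgCtrl against 25.2, 33.7, 23.5 and 23.3 in sgClu. It rose by 0.98 in oHSCs (SE 0.24, adjusted p = 0.0167), and its Clu KO difference of 0.45 (SE 0.18, adjusted p = 0.0463) was under the fold limit. Pars2, the mitochondrial prolyl-tRNA synthetase, stood at 1.38, 1.59, 1.2 and 1.55 FPKM in oHSCs against 0.523, 0.787 and 0.799 in yHSCs, and at 1.65, 1.27 and 0.978 in sgCtrl against 1.66, 3.03, 1.84 and 3.14 in sgClu. Its sgClu and sgCtrl values nearly touched, and its changes were 0.51 (SE 0.20, adjusted p = 0.0589) and 0.55 (SE 0.20, adjusted p = 0.0391). With replicate numbers as a block the age change of Pars2 was 0.49, under the limit. Its Clu KO call was lost without sgClu replicate 2 or 4 or sgCtrl replicate 2 or 3.

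**Figure D3:**
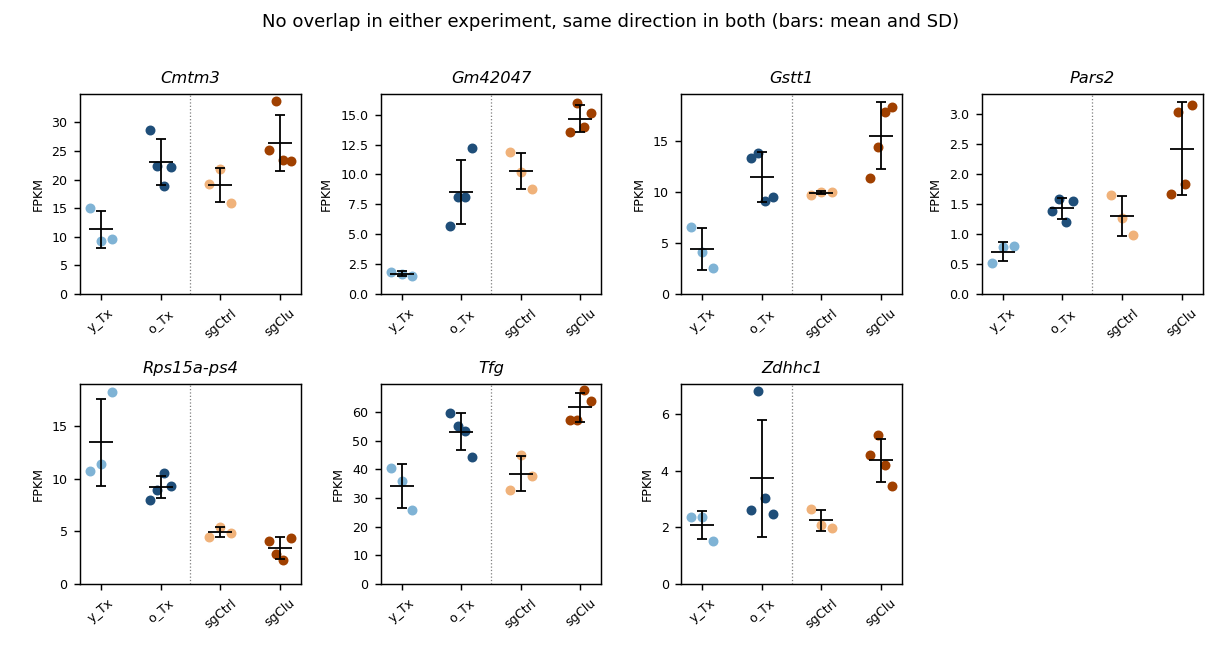
FPKM (y axis, from 0) of the 7 genes whose groups did not overlap in either experiment and that moved the same way in both, with 1 point a library and bars for the mean and SD of each group (x axis). In 6 of them oHSCs lie above yHSCs and sgClu above sgCtrl, in Rps15a-ps4 both lie below, and levels are not compared across the dotted line.

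The other genes positive in both comparisons overlapped in at least 1 experiment. Sf3b4, a splicing factor of the U2 snRNP, rose by 1.21 in oHSCs (SE 0.42, adjusted p = 0.0468), with yHSC libraries as far apart as 51.3, 33.2 and 13.2 FPKM, and the call was lost without yHSC replicate 3. It rose in sgClu by 0.54 (SE 0.17, adjusted p = 0.025), from 62.9, 75 and 54.2 FPKM to 80.4, 114, 86.1 and 94.9. That call was lost without sgClu replicate 2 or sgCtrl replicate 3. Zbtb25, a zinc finger repressor, rose in sgClu by 0.61 (SE 0.20, adjusted p = 0.0271), and its age change of 0.79 (SE 0.43, adjusted p = 0.117) passed only with replicate numbers as a block (0.77) or without yHSC replicate 1. The Clu KO call on Zbtb25 was lost without sgCtrl replicate 1 or 3. Gnpda1, a glucosamine 6-phosphate deaminase, rose in sgClu by 0.57 (SE 0.17, adjusted p = 0.0227), a call lost without sgClu replicate 2 or sgCtrl replicate 1. In age Gnpda1 did not pass at 0.57 (SE 0.27, adjusted p = 0.0859), did at 0.69 with replicate numbers as a block, and was below 0 under both scalings. Glt8d2, a glycosyltransferase, was at 0.87 in age (SE 0.33, adjusted p = 0.0548) and 0.59 in Clu KO (SE 0.24, adjusted p = 0.0521), past the limits in both by the unadjusted p, and its Clu KO call was lost without any of 6 of the 7 libraries.

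Of the 8 predicted, noncoding and repeated genes, 5 rose in oHSCs, beside 62.5% of all genes of the age table. In sgClu 3 fell and 2 rose, beside 50.1% and 15.4% of all genes of the Clu KO table. Xlr3a, a member of an X-linked lymphocyte-regulated gene cluster, had the largest age change of the 42 genes, from 0.236, 0.193 and 0.267 FPKM in yHSCs to 8.46, 5.64, 4.61 and 3.99 in oHSCs (log2 2.39, SE 0.25, adjusted p = 0.000402). In Clu KO the Xlr3a groups overlapped and the difference of -0.64 (SE 0.28, adjusted p = 0.0651) did not pass. Gm42047, an annotated lincRNA, stood at 5.71, 8.12, 8.09 and 12.2 FPKM in oHSCs against 1.88, 1.71 and 1.48 in yHSCs, and at 11.9, 10.2 and 8.83 in sgCtrl against 13.6, 16, 14 and 15.1 in sgClu. It rose by 1.78 in oHSCs (SE 0.25, adjusted p = 0.00154), and its Clu KO difference of 0.48 (SE 0.14, adjusted p = 0.0194) was under the fold limit although no library overlapped. Gm5843, a pseudogene, rose in both, by 0.74 (SE 0.32, adjusted p = 0.072) and by 0.88 (SE 0.22, adjusted p = 0.0124), the largest rise of the 42 genes in sgClu. AW209491 rose in sgClu with overlapping groups (0.59, SE 0.24, adjusted p = 0.0525), and in age its 0.81 (SE 0.39, adjusted p = 0.0877) passed with replicate numbers as a block at 0.997. The Clu KO call on AW209491 was lost without sgClu replicate 1, 2 or 4 or sgCtrl replicate 1 or 3.

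The lincRNA 1200007C13Rik rose by 0.60 (SE 0.21, adjusted p = 0.0474) and fell in sgClu (log2 -0.51, SE 0.20, adjusted p = 0.0453), from group means of 1.64 ± 0.424 FPKM (SD, n = 3) to 0.874 ± 0.412 FPKM (SD, n = 4). The coding gene 4930447C04Rik rose by 0.57 (SE 0.21) and fell in sgClu (log2 -0.63, SE 0.26) by the unadjusted p only. Its age means were near the floor too, 0.0582 FPKM in yHSCs and 0.580 FPKM in oHSCs. The pseudogene 6820431F20Rik fell in sgClu (log2 -0.60, SE 0.15, adjusted p = 0.0135) and was at 0.30 in age (adjusted p = 0.193), a value that both scalings turned below 0. Rps15a-ps4, a processed pseudogene of a ribosomal protein gene that is also known as Lethe, stood at 8, 8.95, 10.5 and 9.3 FPKM in oHSCs and at 10.8, 11.4 and 18.2 in yHSCs. It stood at 4.47, 5.42 and 4.82 FPKM in sgCtrl and at 4.12, 2.88, 2.28 and 4.41 in sgClu. It was the only one of the 42 genes below 0 in both comparisons, without overlap in either, but neither -0.48 (SE 0.24, adjusted p = 0.0983) nor -0.44 (SE 0.20, adjusted p = 0.065) passed, and both scalings turned the Clu KO value above 0. Ttn, the giant muscle protein titin, was under 0.1 FPKM in all 14 libraries, with changes of 0.05 and -0.05 that did not pass.

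Reads of some of these genes cannot be assigned with certainty. By GENCODE M21 all 42 have a position and 36 are protein coding. In 9 genes at least 10% of the 50-base words of the transcripts also occur in another gene, most in Gm42047 (72.9%), Gbp6 (59.7%), Sf3b4 (49.3%, shared with Gm7935), Xlr3a (47.8%) and Gm5843 (39.1%, shared with the erythroid carbonic anhydrase gene Car1). Car1 itself was listed in the age table at 1247 FPKM in oHSCs and 512 FPKM in yHSCs on average and rose by 1.26 (SE 0.24), and its part in the age value of Gm5843 was not tested. The libraries do not mark the strand, and the exons of 9 genes overlap those of another annotated gene, such as Cish (Gm17040 and Gm17041), Rrad (Gm33023), Plk3 (Tctex1d4) and Isca1 (Gm49354 and Etohd2), whose reads there cannot be told apart. Etohd2 was itself listed in Clu KO, at 9.31 FPKM in sgCtrl and 4.55 FPKM in sgClu on average. It fell there (log2 -0.90, SE 0.15, adjusted p = 0.00397), and its part in the Clu KO value of Isca1 was not tested.

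Libraries within a group differed together. In oHSCs replicate 2 was the highest library for 20 of the 42 genes (47.6%), beside 34.1% of all genes of the age table, and for 16 of the 29 genes that were negative in Clu KO. Among the 12 genes positive in both, oHSC replicate 1 was highest for 7, beside 36.8% of all genes of the age table. In yHSCs replicate 3 was the lowest library for 24 of the 42 genes (57.1%), beside 60.3% of all genes. Without it 20 of the 42 genes, not 32, were past the limits in age. In sgClu replicate 1 was lowest for 17 genes (40.5%), beside 29.8% of all genes that vary in the group. The count of genes higher in sgClu was 5, not 10, without sgClu replicate 2 and again 5 without sgCtrl replicate 3.

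**Figure D4:**
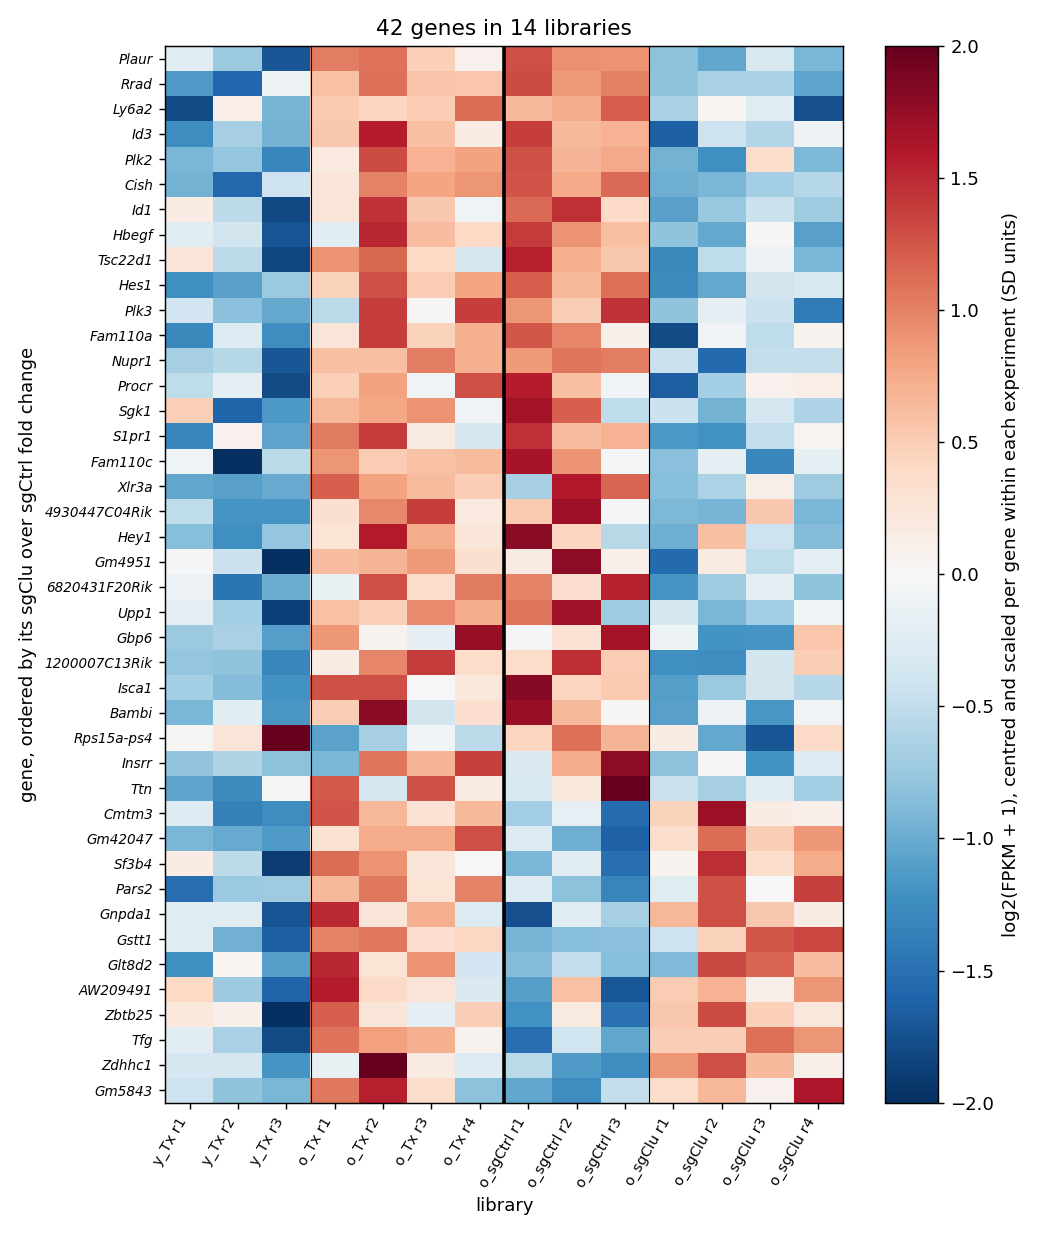
log2(FPKM + 1) of the 42 genes (rows, ordered by their sgClu over sgCtrl fold change) in 14 libraries (columns), centred and scaled per gene within each experiment, in SD units. Most rows are low in the 3 yHSC libraries and high in the 4 oHSC libraries, and the rows from Cmtm3 down are high in the sgClu libraries.

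For the pathways of these genes, the tables show only the members that the authors had listed, and the age list was chosen for genes higher in oHSCs. Counts of listed members that rose or fell therefore stand beside 62.5% of all listed genes higher in age and 50.1% lower in Clu KO, and add no evidence of direction in age. Of 17 BMP target and receptor genes 5 were listed in age, of which Id1, Id2, Id3 and Bambi rose and Bmpr1a, at 0.50 (SE 0.23), did not pass. In Clu KO 4 were listed, of which Id1, Id3 and the inhibitory SMAD gene Smad7 (log2 -0.86, SE 0.13, adjusted p = 0.00302) fell and Bambi did not pass. Of 16 Notch pathway genes Hes1 and Hey1 alone were listed in either table. Of 13 genes of the plasminogen and protein C system 4 were listed in age and all rose, Plaur, Procr, the serpin gene Serpine2 (1.10, SE 0.37, adjusted p = 0.0427) and the tissue factor inhibitor gene Tfpi (1.87, SE 0.23, adjusted p = 0.000699). In Clu KO 4 were listed and all fell, Plaur, Procr, the thrombin receptor gene F2r (log2 -0.56, SE 0.17, adjusted p = 0.0232) and the tissue factor gene F3 (log2 -0.76, SE 0.23, adjusted p = 0.0225). Gem, of the same GTPase family as Rrad, and Socs1, a feedback inhibitor like Cish, were listed in age only, where they rose by 0.69 (SE 0.24, adjusted p = 0.0468) and 0.90 (SE 0.25, adjusted p = 0.0253).

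Other gene groups moved beside these genes. In Clu KO 19 of 25 immediate early and stress genes, a list added after the values were seen, were listed. All 19 fell, beside 50.1% of all genes of that table, among them Fos, Fosl2, Junb, Egr1, Nr4a1 and Atf3. Their summed level was 967 to 1347 FPKM in sgClu and 1777 to 2540 in sgCtrl. In age none of the 25 was listed. For the cell type markers too, a marker listed in age was chosen as higher in oHSCs. Counts of markers that rose in age stand beside 62.5% of the age table, and counts that fell in Clu KO beside 50.1% of its table. Of neutrophil progenitor markers 5 of 8 were listed in age and all 5 rose (7960 to 11250 FPKM summed in oHSCs, 4095 to 5111 in yHSCs), as did 5 of 6 listed erythroid markers (1529 to 2422 and 809 to 1121), all 7 listed mast cell and basophil markers (496 to 786 and 233 to 369) and all 3 listed megakaryocyte markers (266 to 495 and 173 to 240). In Clu KO none of the neutrophil, erythroid or megakaryocyte markers was listed, whereas both listed monocyte and macrophage markers fell, Cd14 (log2 -1.60, SE 0.50, adjusted p = 0.025) and Ly6c2 (log2 -1.06, SE 0.20, adjusted p = 0.00573), with a summed level of 110 to 178 FPKM in sgClu and 245 to 337 in sgCtrl. Cd14 was also higher in oHSCs (1.55, SE 0.35, adjusted p = 0.0137), whereas Csf1r, the other monocyte and macrophage marker listed in age, did not pass (0.26, SE 0.21, adjusted p = 0.263). The mast cell markers Mcpt4 and Tpsb2 were at 0 in all sgClu libraries, and in sgCtrl replicates 1 to 3 at 0.317, 0 and 7.77 FPKM for Mcpt4 and at 2.55, 0 and 34.7 FPKM for Tpsb2, so that replicate 3 held most of the signal and Mcpt4 did not pass. Of 11 HSC markers only Procr, Slamf1 and Vwf were listed in age and Procr and Fgd5 in Clu KO, so the sorted identity could not be checked. The part of other cells or of stress during sorting in the values of the 42 genes was not tested, and a change in the share of a cell type cannot be told apart from a change within cells.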

How the data were processed

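The authors trimmed SMART-Seq v4 reads (TrimGalore), aligned them to mm10 (Hisat2), counted them (FeatureCounts) and called genes with DESeq2. The deposited values were read as FPKM, which the authors would have scaled by transcript length and library size. No unit stands in the headers and TPM is possible, and the annotation and the step from counts to FPKM are not given in the sources used here. Each table holds a list of genes and not all genes, no counts and no depth, so no counting error can be given and p-values describe a selected list.

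Groups were taken from the sample titles. As separate cultures or animals are not stated for each library, p-values measure the spread between these libraries. limma (version 3.58.1, R 4.3.3) was fitted to log2(FPKM + 1) over all genes of an experiment, o_Tx against y_Tx and o_sgClu against o_sgCtrl, with no covariate. It is a count-free test, as the tables hold normalized values. A gene passed with an unadjusted two-sided p under 0.05 and an absolute log2 fold change above 0.5. Adjusted p is Benjamini-Hochberg over all genes of the experiment. The fit was tested on simulated data. The alternatives were a trend of variance on mean, separate fits for each gene, 2 scalings, a filter at a mean of 1 FPKM, a pseudocount of 0.1, adjusted p, a fold limit of 1, a replicate block and leaving out each library. The deviations of same-numbered libraries in the age experiment correlated at r = 0.405, 0.163 and 0.161 for numbers 1 to 3. Pairs of different numbers had r from -0.316 to 0.192, so number 1 alone stood apart. The block is given wherever it changes an age call. Replicate 4 of oHSCs and of sgClu has no partner of its number, so the block takes the fold change from replicates 1 to 3.

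Every one of the 42 genes is named, with values by library for those separated in both experiments and the main contrasts of the others. The 42 genes, the lists and the limits were chosen with earlier results of these data known. Positions, shared 50-base words (limit 10%) and overlaps come from GENCODE M21 (GRCm38), with Ly6a2 matched through its synonym I830127L07Rik, and promoter sequences from RefSeq (GRCm38.p6).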

Additional observations from a re-analysis of the deposited data

Results flagged for a closer look

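In each of the 2 groups of 4 libraries, the 42 genes were searched for a library whose gap to its nearest neighbour takes up most of the range of the group (Dixon's test), and 6 of the 84 gene and group pairs had one. Chance flags about 1 in 20 such groups. In oHSCs, replicate 4 was high for Ly6a2 (15.7 FPKM, next 10.2), and replicate 2 was high for Rrad (28.0 FPKM, next 21.7) and for Zdhhc1 (6.80 FPKM, next 3.04). In sgClu, replicate 3 was high for 4930447C04Rik (1.19 FPKM, next 0.343) and for Plk2 (10.3 FPKM, next 4.74), and replicate 2 was low for Nupr1 (41.5 FPKM, next 58.6). The calls on Ly6a2, Rrad, Plk2 and Nupr1 held in both experiments without each library in turn, whereas the Clu KO call on 4930447C04Rik was lost without any of 5 libraries.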

How the results depend on the processing

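The counts of the 42 genes, 32 higher in oHSCs, 21 lower in sgClu, 10 higher in sgClu and 18 higher in oHSCs and lower in sgClu, stayed within 1.5 times under the trend, the filter and the pseudocount. They were 8, 7, 12 and 2 after median-of-ratios scaling and 8, 8, 12 and 2 after column-total scaling, both computed within tables of genes chosen for going mostly 1 way. A fit per gene left 10 of the 18, adjusted p left 20 of the 32, and a fold limit of 1 left 12, 9, 0 and 5. Leaving out 1 library gave 20 to 33, 16 to 24, 5 to 10 and 13 to 22. Over all genes adjusted p left 389 of 652 age calls, and the fold limit of 1 left 197 of them, 69 of 292 lower and 7 of 90 higher Clu KO calls. With the replicate block the counts were 35, 21, 7 and 18, and the block changed no age call beyond the 9 given with their genes. The Clu KO libraries of the same number did not deviate together (r = -0.103, 0.0731 and 0.0578), so the numbers pair nothing there, and calls lost under the block, such as Procr and Sgk1, are not read as weaker effects. In age number 1 alone stood apart and the block leaves out oHSC replicate 4, so age calls gained under it are not read as firmer effects. Log2 fold changes turned sign only under the scalings. After median-of-ratios scaling the reversed age values were 6820431F20Rik -0.38, Bambi -0.021, Gm4951 -0.0055, Gnpda1 -0.16, Isca1 -0.17, Plk3 -0.090, S1pr1 -0.16, Tfg -0.16, Tsc22d1 -0.20, Zdhhc1 -0.050, and the reversed Clu KO values were Bambi 0.043, Isca1 0.12, Rps15a-ps4 0.060. After column-total scaling the reversed age values were 6820431F20Rik -0.25, Gnpda1 -0.027, Isca1 -0.018, S1pr1 -0.029, Tfg -0.011, Tsc22d1 -0.045, and those in Clu KO were Bambi 0.0069, Isca1 0.072, Rps15a-ps4 0.029. Depth is unknown, so the precision of values under 1 FPKM cannot be given.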
